A study of Mus musculus with 18 samples.

Results

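The genes described here are the collagens and 6 small matrix genes of the same tissue layers: decorin (Dcn), osteoglycin (Ogn), lumican (Lum), fibromodulin (Fmod), biglycan (Bgn) and matrix Gla protein (Mgp). Members were all probe sets whose single gene symbol in the array's annotation named a collagen chain (Col, a number, a and a number) or was one of those 6 symbols. This gave 72 of 22626 probe sets and 42 of 12393 genes, of which 39 probe sets of 27 genes were bright enough to be tested. RNA was measured on Affymetrix Mouse 430A arrays from the oculomotor nucleus, the midbrain nucleus that drives most eye muscles and which amyotrophic lateral sclerosis (ALS) tends to spare, and from the cervical spinal cord. The 6 groups were each of the 2 regions from mutant mice of an ALS model at 6 weeks, from mutants at 10 weeks and from controls at 10 weeks. The labels name neither the mutation, the strain nor the sex, no control of 6 weeks was measured, and the control genotype is not described. Each group had 3 arrays, except that control spinal cord replicate 1 was left out, so that 17 arrays were used. The series text calls the replicates independent without saying whether each was a separate animal or a pool, so the p-values reflect spread between samples that may be technical. Precision is limited by how few arrays there are.

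Fibrillar collagens are rod-shaped proteins built from triple helices that assemble into the tensile fibrils of connective tissue, while basement membrane collagens form the sheet under endothelium and around glia and nerve. Small leucine-rich proteoglycans bind fibrils and control their width and spacing. In the central nervous system both are known mainly from the meninges, from the cells around blood vessels and from nerve roots, while the neural tissue itself holds little fibrillar collagen.

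The 4 sequences below are the 150 bases before the annotated start of Col1a2, Col3a1 and Ogn, which differed strongly between the regions in 1 direction, and of Col11a1, which differed in the other. They are given as a description, since 4 chosen windows cannot show whether genes with a like pattern carry like promoter letters. They come from RefSeq on GRCm38.p6, where 30 of the 42 member genes had an entry, and run 5′ to 3′ on the plus strand, the strand of all 4 genes. Capitals mark CCAAT or TATAA on either strand (ATTGG and TTATA on the other).
Col1a2, chr6:4505468-4505617: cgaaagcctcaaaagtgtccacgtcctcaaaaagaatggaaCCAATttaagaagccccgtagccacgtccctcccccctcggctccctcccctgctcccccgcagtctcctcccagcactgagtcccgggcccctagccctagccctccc
Col3a1, chr1:45311388-45311537: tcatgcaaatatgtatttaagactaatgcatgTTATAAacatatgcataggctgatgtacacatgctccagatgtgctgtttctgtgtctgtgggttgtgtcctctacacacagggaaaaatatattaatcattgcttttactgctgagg
Ogn, chr13:49607865-49608014: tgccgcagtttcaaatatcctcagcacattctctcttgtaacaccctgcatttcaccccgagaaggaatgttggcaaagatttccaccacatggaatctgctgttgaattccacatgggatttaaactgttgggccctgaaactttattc
Col11a1, chr3:114030390-114030539: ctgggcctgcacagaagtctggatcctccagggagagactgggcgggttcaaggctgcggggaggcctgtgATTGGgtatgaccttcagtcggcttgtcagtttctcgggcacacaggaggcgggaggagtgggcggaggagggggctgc
Among all 32851 windows of this length, 24.5% held CCAAT and 14.2% held TATAA. Col1a2 and Col11a1 held CCAAT, on opposite strands, and differed in opposite directions. Col3a1 held TATAA overlapping TTATA by all but 1 base, and Ogn held neither motif. A match is a description of the letters, and the lack of one says only that these letters are not in this window.

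Across probe sets the 17 arrays correlated between 0.957 and 0.985, and their median signals lay between 207 and 226. Control spinal cord replicate 1 correlated with the others between 0.0104 and 0.0143. The regions matched their labels in position genes: 6 of 6 tested Hox genes of the cord were lower in the oculomotor nucleus, and 5 of 5 tested dopamine and serotonin genes of the midbrain were higher. The summed signal of 5 motor neuron markers, none of them below 25.0 on every array of a group, ranged from 473.2 to 670.8 in the oculomotor nucleus and from 1410.3 to 1780.5 in the cord. Control oculomotor replicate 3 and 10-week mutant oculomotor replicate 2 carried high signals of pituitary hormone genes (summed 6513.1 and 23689.1, against 473.9 to 1793.4 on the other arrays), and values without them are given below. Control oculomotor replicates 1 and 2 stood apart in 5 choroid plexus markers (summed 7441.8 and 2619.7, against at most 662.6 on the other arrays; Ttr 6884.3 and 2147.7), and replicate 2 had the highest sum of 8 skeletal muscle markers (1949.2, against 233.1 to 1559.1).

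Collagen I and III transcripts and all 6 small matrix genes were lower in the oculomotor nucleus than in the spinal cord, while the differences of the other tested collagens were smaller than those of the tested collagen I and III probe sets and ran in both directions. Averaged over the 3 conditions, Col3a1 was 4.26-fold, Col1a1 4.81-fold and Ogn 4.36-fold lower. Col11a1, a minor fibrillar chain, was 1.4-fold higher on the 1 tested of its 2 probe sets. In these bulk samples fewer cells of a type and less RNA per cell cannot be told apart. Below, a log2 fold change is the difference of mean log2(signal + 25.0) and carries its standard error (SE), and a probe set is "called" when its adjusted p is below 0.05 in limma with Benjamini-Hochberg adjustment over 13575 probe sets. Probe sets bind their targets unequally, so levels are compared between arrays for 1 probe set, never between genes.

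**Figure D1:**
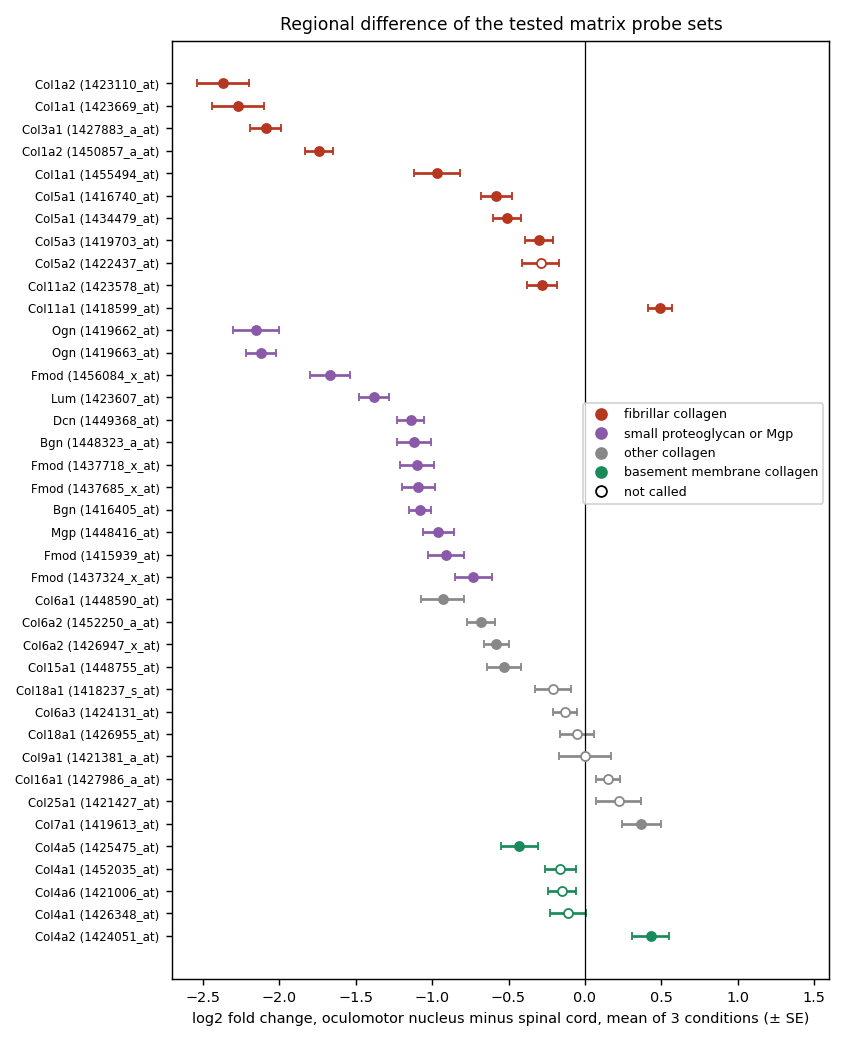
Log2 fold change (± SE) of each of the 39 tested probe sets, oculomotor nucleus minus spinal cord, averaged over the 3 conditions (x axis; each row is 1 probe set, sorted within class). Filled points were called and open points were not; the small proteoglycans and Mgp all lie between -2.15 and -0.73, and Col11a1, Col7a1 and Col4a2 are the called points above 0.

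In 6-week mutants 23 of the 39 tested members were called lower and 3 higher in the oculomotor nucleus, where 11.7% of all tested probe sets were called lower and 12.2% higher. In 10-week controls 17 were called lower and 2 higher (6.94% and 6.62% of all). In 10-week mutants 26 were called lower and 0 higher (9.99% and 9.3% of all); 28 members had an unadjusted p under 0.05 in either direction in limma. In the mean of the 3 conditions 26 were called lower and 3 higher (17.7% and 20% of all), the medians being -0.58 for the members and 0.02 for all tested probe sets. Calls in all 3 conditions were made for 16 members of 10 genes, all of them lower, and for 597 (4.4%) of all tested probe sets in that direction.

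A member that is bright only in the cord passes the brightness filter because of the cord, so these shares describe the tested members and support nothing beyond them. With no filter, 33 of all 72 member probe sets were called lower and 2 higher in the mean of the 3 conditions, where 12.2% and 13.1% of all 22626 were. Without the 2 arrays with high pituitary signals, 25 members were called lower and 4 higher in that mean, and 24, 15 and 20 lower in 6-week mutants, controls and 10-week mutants. Without control oculomotor replicate 1 or 2, which had high choroid plexus signals, 26 were called lower and 2 higher in the mean, and 15 or 16 lower in controls. With a change of at least 2-fold also required, 13 were called lower and 0 higher.

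The chains of collagen I and III, the main fibril formers of skin, vessel walls and meninges, had the largest differences among the collagens. Col3a1 read 229.7, 253.8 and 155.3 in the oculomotor nucleus of 6-week mutants, 196.7, 217.1 and 210.3 in that of controls and 158.4, 218 and 207.2 in that of 10-week mutants. In the cord it read 1499.7, 1610.6 and 1603.6 in 6-week mutants, 763.2 and 720.4 in controls and 632.1, 991.2 and 605.4 in 10-week mutants. The highest oculomotor array thus lay far below the lowest cord array, and within the cord the 6-week arrays stood above the rest. The log2 fold change of Col3a1 was -2.77 ± 0.17 in 6-week mutants, -1.72 ± 0.19 in controls and -1.78 ± 0.17 in 10-week mutants (adjusted p from 1.62e-09 to 5.84e-06).

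Col1a1 encodes the alpha 1 chain of collagen I. On its brighter probe set it read 113.4, 122.7 and 36.3 in oculomotor samples of 6-week mutants, 92.7, 122.6 and 86 in controls and 84.7, 64.3 and 79 in 10-week mutants. The cord signals were 980.9, 860.9 and 715.9 in 6-week mutants, 454.3 and 363 in controls and 285.3, 589 and 311.4 in 10-week mutants. The regions did not overlap, and 1 oculomotor array, 6-week mutant replicate 3, stood low. The log2 fold changes were -3.01 ± 0.28, -1.79 ± 0.31 and -1.99 ± 0.28 in the same order of conditions. The dimmer probe set of Col1a1 had a mean difference of -0.97 ± 0.15, also with regions apart, and was not called in controls (-0.54, adjusted p = 0.231).

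Col1a2 encodes the partner chain, alpha 2. Its brighter probe set read 530.5, 512.2 and 366.9 (6-week mutants), 424.1, 541.3 and 387.9 (controls) and 381, 480.1 and 487.9 (10-week mutants) in the oculomotor nucleus. In the cord the signals were 2298.5, 2089.8 and 2137.4, then 1489.9 and 1270.6, then 1489.9, 1403.4 and 1039. No oculomotor array reached the lowest cord array, and the mean difference was -1.74 ± 0.09 (adjusted p = 5.36e-11). The dimmer probe set gave -2.37 ± 0.17, with regions apart as well.

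**Figure D2:**
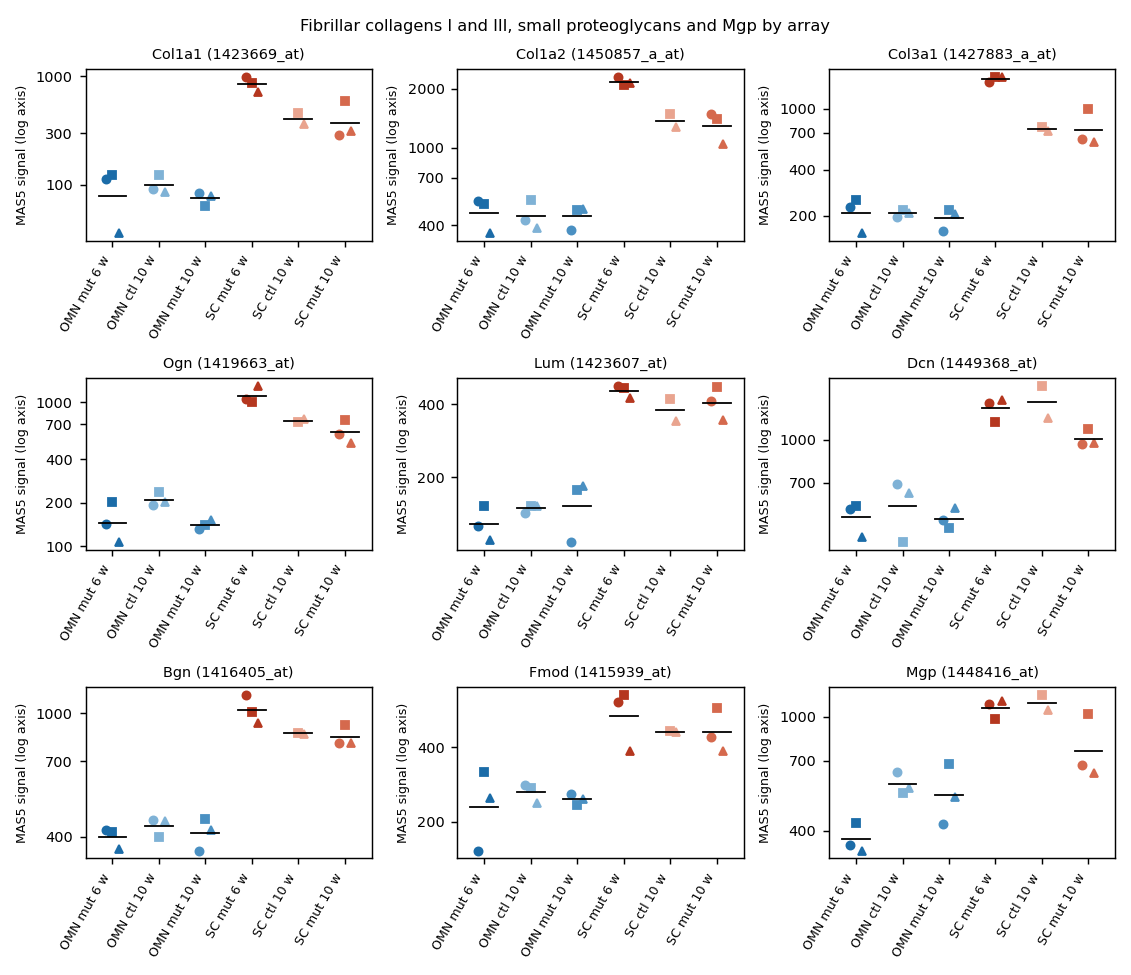
MAS5 signal (y axis, log scale, in units of the array's scaled signal) of 9 probe sets on each of the 17 arrays, by group (x axis: OMN, oculomotor nucleus; SC, spinal cord; mut, mutant; ctl, control; w, weeks). Circles, squares and triangles are replicates 1, 2 and 3 and black lines are geometric means; the spinal cord arrays lie above the oculomotor arrays in each panel but that of Mgp, where oculomotor 10-week mutant replicate 2 and control replicate 1 reach the lowest cord arrays.

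The other fibrillar chains differed less. Collagen V chains, which sit inside collagen I fibrils and set their width, had mean differences of -0.58 ± 0.1 and -0.51 ± 0.09 on the tested probe sets of Col5a1, -0.3 ± 0.09 for Col5a3 and -0.29 ± 0.12 for Col5a2, the last of which was not called (adjusted p = 0.0705). On the brighter Col5a1 probe set the oculomotor arrays ran from 113.1 to 213.1 (median 154.7) and the cord arrays from 170.2 to 314.3 (median 242), so that the regions overlapped. Collagen XI is the cartilage counterpart of collagen V. In the mean of the 3 conditions its chain Col11a2 was lower (-0.28 ± 0.1) and Col11a1 higher (0.49 ± 0.08). Col11a2 signals overlapped between the regions (225.5 to 374.9 in the oculomotor nucleus against 246.2 to 463.1 in the cord). Its mean log2 signal was 8.48 in both regions of 6-week mutants, and 8.13 against 8.45 in controls. In 10-week mutants it was 8.18 against 8.72, the only condition with a call for Col11a2, and Col11a1 was not called there. In all, 9 of 11 tested fibrillar probe sets were called lower and 1 higher in the mean of the 3 conditions, with a median of -0.58. Of all tested probe sets 17.7% were called lower and 20% higher in that mean. By condition, 7 of the 11 were called lower and 1 higher in 6-week mutants (11.7% and 12.2% of all). In controls 4 (of 3 genes) were called lower and 1 higher (6.94% and 6.62% of all), and in 10-week mutants 10 lower and 0 higher (9.99% and 9.3%).

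Col11a1 read 480.3, 412 and 416.9 in oculomotor samples of 6-week mutants, 395.2, 532 and 359.5 in controls and 441.7, 413.7 and 467.9 in 10-week mutants. Cord signals were 243.5, 240.6 and 256, then 326.6 and 280.1, then 382.3, 364.3 and 358.1. The regions were apart in each condition, and 1 control oculomotor array lay within the range of the 10-week mutant cord arrays. The log2 fold change was 0.76 ± 0.13 in 6-week mutants, 0.45 ± 0.14 in controls (adjusted p = 0.0404) and 0.24 ± 0.13 in 10-week mutants (adjusted p = 0.193, not called). The control value rested on single arrays: the call was lost without control oculomotor replicate 1 (0.5, adjusted p = 0.0557) or 2 (0.3, 0.19), without either control cord array (0.55 and 0.35, 0.0833 and 0.259) and without 10-week mutant oculomotor replicate 1 (0.45, 0.0504). It was also lost with no filter (0.0613) and in a fit of the compared arrays alone (0.117). The second Col11a1 probe set was too dim to be tested with the filter. Its mean difference without one was 0.06, not called. Its signals overlapped (73.1 to 128.6 in the oculomotor nucleus against 76.1 to 137.3 in the cord), so the higher value rests on 1 of 2 probe sets.

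All 12 tested probe sets of the small proteoglycans and Mgp were called lower in the mean of the 3 conditions, where 17.7% of all were. Their median was -1.11. Osteoglycin, a keratan sulphate proteoglycan of connective tissue, had the largest difference. Its brighter probe set read 142.9, 201.9 and 107.4 in the oculomotor nucleus of 6-week mutants, 193, 237.3 and 201 in controls and 131.2, 140.3 and 152.3 in 10-week mutants. In the cord it read 1040.9, 1001.5 and 1289.4 in 6-week mutants, 724.4 and 756.9 in controls and 602.9, 746.9 and 517.1 in 10-week mutants. The regions were far apart on both Ogn probe sets, with log2 fold changes from -2.72 ± 0.17 to -1.71 ± 0.19 on the brighter and from -2.86 ± 0.25 to -1.76 ± 0.25 on the dimmer over the 3 conditions.

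Lumican, which spaces collagen fibrils, read 125.7, 152.9 and 110.4 (6-week mutants), 143.3, 152 and 152.4 (controls) and 108.7, 176.7 and 183.6 (10-week mutants) in the oculomotor nucleus. The cord values were 474.6, 466 and 425.1, then 418.7 and 341.5, then 412.5, 469.2 and 343.5. The regions were apart, and the cord groups lay close together. The mean difference of Lum was -1.38 ± 0.1, or 2.6-fold.

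Decorin binds collagen fibrils and growth factors of the TGF-beta family. Dcn read 562.1, 576.6 and 445.7 (6-week mutants), 693.6, 427.3 and 643.2 (controls) and 510.5, 479.9 and 565 (10-week mutants) in oculomotor samples. The cord arrays read 1360.9, 1154.9 and 1391.9, then 1563.7 and 1200.3, then 964.7, 1092.9 and 975.8. The regions were apart, and in the cord the 10-week mutants lay below both other groups. The log2 fold change was -1.27 ± 0.15 in 6-week mutants, -1.21 ± 0.17 in controls and -0.93 ± 0.15 in 10-week mutants.

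Biglycan, the closest relative of decorin, read 421.8, 414.4 and 365.1 (6-week mutants), 454, 398 and 448.5 (controls) and 360.7, 457.8 and 419.4 (10-week mutants) in the oculomotor nucleus. In the cord Bgn read 1144.7, 1010.6 and 930.2, then 866.2 and 860.3, then 804.6, 915.9 and 799.3. The regions were apart, with a mean difference of -1.08 ± 0.07, and the oculomotor groups spread little.

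Fibromodulin, which regulates collagen cross-linking, had 6 probe sets, of which 5 were tested. The brightest probe set read 153.1, 318.3 and 249.6 (6-week mutants), 282.8, 274 and 238 (controls) and 258.5, 234.4 and 248 (10-week mutants) in oculomotor samples. The cord arrays read 607.6, 650.7 and 385.6, then 464.5 and 461.5, then 440.8, 575.5 and 387.4. The regions were apart, with a mean difference of -0.91 ± 0.12. The mean differences of the 6 probe sets ran from -1.67 to -0.73; apart from the brightest, their names carry the Affymetrix suffix for probes that may bind other transcripts. In controls the call for the brightest (-0.75, adjusted p = 0.0362) was lost without any 1 of the 5 arrays compared: the adjusted p was 0.0597, 0.071 and 0.0966 without oculomotor replicates 1, 2 and 3, and 0.175 and 0.134 without cord replicates 2 and 3. It was also lost without the 2 arrays with high pituitary signals (-0.69, 0.111) and with no filter (0.0699).

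Mgp, an inhibitor of calcification made by vessel walls and fibroblasts, was the least separated of these genes. It read 356.4, 426.3 and 340 in oculomotor samples of 6-week mutants, 639.3, 541.1 and 563.4 in controls and 420.9, 681 and 525.1 in 10-week mutants. In the cord it read 1106.4, 983.7 and 1135.3, then 1190.2 and 1052.8, then 680.4, 1019.9 and 635.1. The regions overlapped in 10-week mutants only. The log2 fold change was -1.47 ± 0.17 in 6-week mutants, -0.92 ± 0.19 in controls and -0.5 ± 0.17 in 10-week mutants. The last (adjusted p = 0.0434) was lost without 10-week mutant cord replicate 2 (-0.29, adjusted p = 0.224), without 10-week mutant oculomotor replicate 1 (-0.34, 0.217) or 3 (-0.49, 0.0996), without control oculomotor replicate 3 (0.0511) or without 6-week mutant cord replicate 1 (0.0517). It was lost too with median centring (-0.46, adjusted p = 0.0615), with no filter (0.0701), without a variance trend (0.0544) and in a fit of the compared arrays alone (0.108).

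The collagens outside the fibrillar class and collagen IV were mixed. Only collagen IV was classed as basement membrane, so Col15a1 and Col18a1 were counted among these others. In the mean of the 3 conditions 4 of 11 tested probe sets were called lower and 1 higher, where 17.7% and 20% of all were. Their median was -0.13. Collagen VI makes beaded filaments around fibroblasts, muscle and nerve. Col6a1 read 220.4, 144.7 and 75.2 (6-week mutants), 154.8, 179.1 and 161.6 (controls) and 160.2, 139 and 175.8 (10-week mutants) in the oculomotor nucleus. Spinal cord arrays read 449.5, 361.4 and 320.8, then 289.3 and 290.2, then 228.8, 287.1 and 345.8. The regions were narrowly apart, with a mean difference of -0.93 ± 0.14. In 10-week mutants (-0.76, adjusted p = 0.0271) the call was lost without oculomotor replicate 1 (0.0652) or 2 (0.0908) or cord replicate 2 (0.063) or 3 (0.103), without the 2 arrays with high pituitary signals (-0.68, 0.104) and with no filter (0.0534).

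Col6a2 read 455.1, 454.4 and 380.3 (6-week mutants), 371.2, 362.2 and 307 (controls) and 315.5, 353.2 and 412.5 (10-week mutants) in the oculomotor nucleus on its brighter probe set. In the cord it read 703.5, 533.7 and 643.3, then 455.2 and 515.3, then 616.4, 581.9 and 674.4. The highest oculomotor and the lowest cord value were almost equal. The mean difference was -0.58 ± 0.08, and -0.68 ± 0.09 on the other probe set. In controls (-0.46, adjusted p = 0.0393) the call was lost without any 1 of the 5 arrays compared, with adjusted p from 0.0527 (without oculomotor replicate 1) to 0.235 (without cord replicate 3), the values without oculomotor replicates 2 and 3 and cord replicate 2 being 0.0647, 0.126 and 0.0965. It was also lost without the 2 arrays with high pituitary signals (-0.38, 0.142), with no filter (0.0583) and in a fit of the compared arrays alone (0.0523). The third chain, Col6a3, was not called (-0.13 ± 0.08).

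Col15a1, a collagen of the zone beneath basement membranes, was lower (-0.53 ± 0.11), with overlap between 115.3 to 196.5 in the oculomotor nucleus and 159.3 to 343.1 in the cord. Col7a1, which anchors skin epithelium, was higher (0.37 ± 0.13, adjusted p = 0.0303), with overlapping signals of 108.9 to 258.9 and 83.6 to 173.2. That call was lost with no filter, where 0 probe sets of these other collagens were called higher in the mean. Not called in the mean of the 3 conditions were Col16a1 (0.15 ± 0.08; called at 0.22, adjusted p = 0.0364, without the 2 arrays with high pituitary signals), both probe sets of Col18a1 (-0.21 and -0.05), Col9a1 (0) and Col25a1, a membrane collagen of neurons (0.22 ± 0.15). Col16a1 was called higher in 6-week mutants (0.57 ± 0.14, adjusted p = 0.00537).

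**Figure D3:**
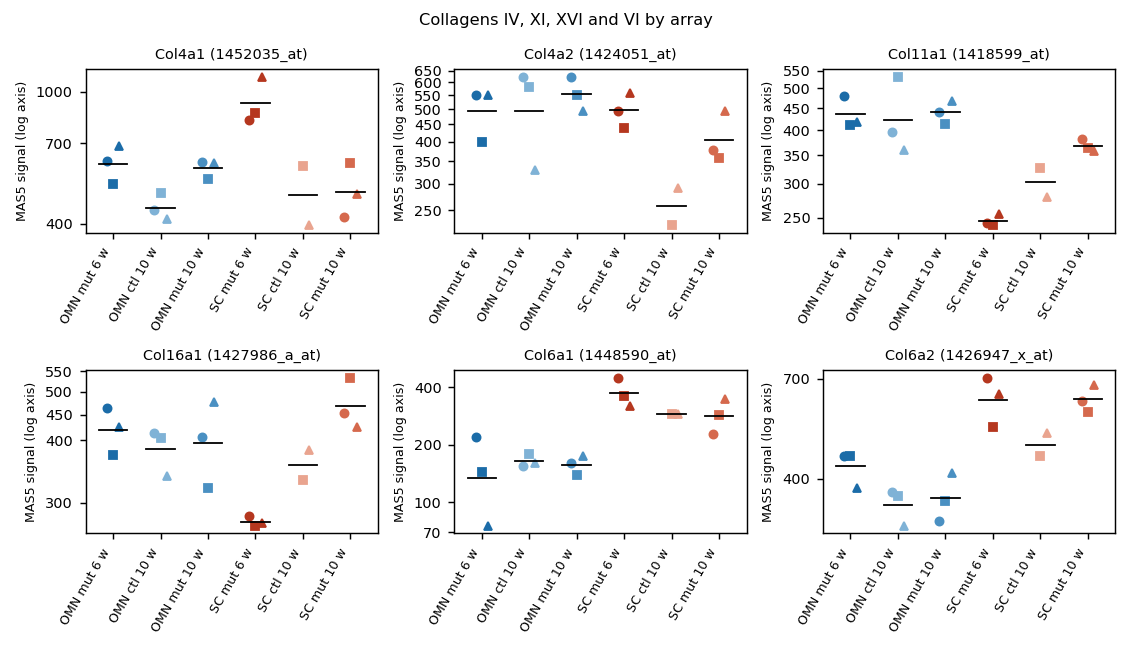
MAS5 signal (y axis, log scale, scaled signal units) of probe sets of Col4a1, Col4a2, Col11a1, Col16a1, Col6a1 and Col6a2 on each of the 17 arrays, by group (x axis, groups abbreviated OMN, oculomotor nucleus, and SC, spinal cord). Circles, squares and triangles are replicates 1, 2 and 3 and black lines are geometric means; Col11a1 lies lowest in the cord of 6-week mutants (240.6 to 256), where Col4a1 lies highest (822.1 to 1109.1).

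Of 5 tested probe sets of basement membrane collagen IV, 1 was called lower (Col4a5, -0.43 ± 0.12) and 1 higher (Col4a2, 0.43 ± 0.12) in the mean of the 3 conditions, and the median was -0.15. These shares, 20% each, lie near those of all tested probe sets (17.7% and 20%). Col4a1 and Col4a2 encode the main collagen IV chains of vessels, and their RefSeq starts lie 21 bases apart on opposite strands of chromosome 8. On its brighter probe set Col4a1 read 618.9, 525.6 and 684.7 (6-week mutants), 439.3, 494.5 and 413.7 (controls) and 614.5, 546 and 610 (10-week mutants) in oculomotor samples. Cord signals were 822.1, 861 and 1109.1, then 598.5 and 396.6, then 418.2, 610.4 and 490.8. Only the 6-week mutants had the regions apart, with a log2 fold change of -0.59 ± 0.16 (adjusted p = 0.0114), against -0.12 ± 0.18 in controls and 0.22 ± 0.16 in 10-week mutants, neither called. The 6-week call was lost without oculomotor replicate 2 (-0.49, adjusted p = 0.0594) or cord replicate 3 (-0.46, 0.0681). Col4a2 ran from 328.7 to 623.9 in the oculomotor nucleus and from 225.8 to 559.3 in the cord; it was called in controls (0.88 ± 0.22) and not in mutants of 6 (-0.01) or 10 weeks (0.43, adjusted p = 0.14). Col4a6 (-0.15 ± 0.09) and the dimmer Col4a1 probe set (-0.11 ± 0.12) were not called.

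The 33 member probe sets not tested had a median signal of 49.7, and 15 genes had no tested probe set. Without a filter, 8 of the 33 were called lower and 0 higher in the mean of the 3 conditions, where 12.2% and 13.1% of all 22626 probe sets were. The 8 were second probe sets of Col3a1 (-0.67), Col4a5 (-0.68), Col5a2 (-0.8), Bgn (-0.87) and Fmod (-1.04), both probe sets of Col14a1 (-0.65 and -0.34), a collagen that binds fibril surfaces, and 1 of Col9a3 (-0.63). Cartilage collagen Col2a1 (5.3 to 129.9 over all arrays) and Col10a1 (8.5 to 81) were dim throughout, as were Col17a1 (2.9 to 33.6) and Col22a1.

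Genes that build, cross-link and receive the collagen matrix were taken from 8 lists of other genes. Of 20 tested genes that modify, secrete or cross-link collagen, 8 were called lower and 1 higher in the mean of the 3 conditions (median -0.09); the 4 with the smallest p were Pcolce, which helps to trim the collagen ends (-1.56 ± 0.11), Plod1, a lysyl hydroxylase (-0.51), and the cross-linking oxidases Lox (-0.93) and Loxl1 (-1.27). Of 9 elastic and adhesive matrix genes, 7 were called lower and 1 higher (median -0.45), among them fibronectin Fn1 (-0.9 ± 0.07), Fbln1 (-0.81), Tgfbi (-1.01) and elastin Eln (-0.45). The other basement membrane genes split, 2 lower and 2 higher of 8: nidogen Nid1 was lower (-1.66 ± 0.09) and nephronectin Npnt higher (1.25 ± 0.09). The 1 tested member among the other small leucine-rich genes, Prelp, was lower (-0.62).

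The proteoglycans of neural matrix divided more evenly, 6 lower and 4 higher of 12, with Hapln2 (-0.94), Acan (-0.71) and Vcan (-0.48) lower and Cspg5 (0.55) higher. Of 13 matrix proteases and inhibitors 7 were lower and 2 higher, with Mmp2 (-1.28), Mmp9 (-0.86), Ctsk (-0.75) and Adamts5 (-0.73) lower. Of 4 collagen receptors, Ddr1 (-0.6) and Itgb1 (-0.52) were lower. Of 12 genes of TGF-beta and related signalling 6 were lower and 0 higher, among them Tgfbr1 (-0.55) and Ccn2 (-0.9); 17.7% of all tested probe sets were called lower and 20% higher.

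Markers of several cell types also differed between the regions. Of 7 tested fibroblast markers 6 were called lower (median -1.05), with S100a6 at -2.01 ± 0.09 and Igfbp6 at -1.58 ± 0.11. The summed signal of 12 fibroblast markers ran from 2203.2 to 2399.1, from 2423.4 to 2577.3 and from 2225.3 to 2481.8 in oculomotor samples of 6-week mutants, controls and 10-week mutants. In the cord the sums ran from 5233 to 5374.2, from 4698.8 to 4837.6 and from 4093 to 4984.1, so the regions were apart in each condition; 1 of the 12 genes was below 25.0 on every 6-week cord array. Of 9 leptomeningeal markers 6 were lower and 1 higher (median -0.4), with Aldh1a2 at -1.15 ± 0.12 and Igf2 at -0.7 ± 0.09. The sum of 15 leptomeningeal markers overlapped between the regions (13732.5 to 21135.9 against 15353.7 to 20665.4), and Ptgds made up most of it; Crabp2 averaged 10.87 to 14.5 in the oculomotor groups.

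The 2 tested Schwann cell markers were both lower: Pmp22, a peripheral myelin gene, at -2.09 ± 0.09 and Sox10, which oligodendrocytes also express, at -0.73. The sum of 6 Schwann cell markers ran from 2238.5 to 2885.3 in the oculomotor nucleus. In the cord it ran from 8149.7 to 11683 in 6-week mutants, from 5694.7 to 5982.1 in controls and from 5551.8 to 7146.4 in 10-week mutants. Pmp22 made up most of the cord sum (mean 7729, 3860 and 4426 in the same order), and Sox10 was next (1709, 1504 and 1522). None of the 6 was below 25.0 on every array of a group. Of 13 endothelial markers 4 were lower in the mean of the 3 conditions (median -0.17), 3 in 6-week mutants and 1 in each of controls and 10-week mutants, with sums of 5465.2 to 6101.3 and 6561 to 7786.2 for 14 genes in the 2 regions. Of 6 mural cell markers, 2 were lower in the mean (Tagln -0.45 and Pdgfrb -0.28), 4 in 6-week mutants and 0 in controls or 10-week mutants (medians 0 and 0.04).

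Markers of several cell types not known for fibrillar matrix were called lower in the oculomotor nucleus as well, while general neuronal markers were mixed. Of all tested probe sets 17.7% were called lower and 20% higher in the mean of the 3 conditions. In the mean of the 3 conditions all 7 tested oligodendrocyte markers (median -0.47), 6 of 7 microglial markers (median -0.64), 4 of 7 astrocyte markers (1 higher, median -0.62), the 1 tested blood marker (-1.4) and 3 of 7 general neuronal markers (1 higher, median 0.06) were called lower. The astrocyte sums (13254.5 to 15531 against 25793.3 to 30287.2) and the microglial sums (5152.6 to 6165.1 against 7455.8 to 11379.7) separated the regions, while the oligodendrocyte sums overlapped (33307.2 to 60003.1 against 50081.9 to 68430.1). The part of these cell types in the matrix differences was not tested.

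**Figure D4:**
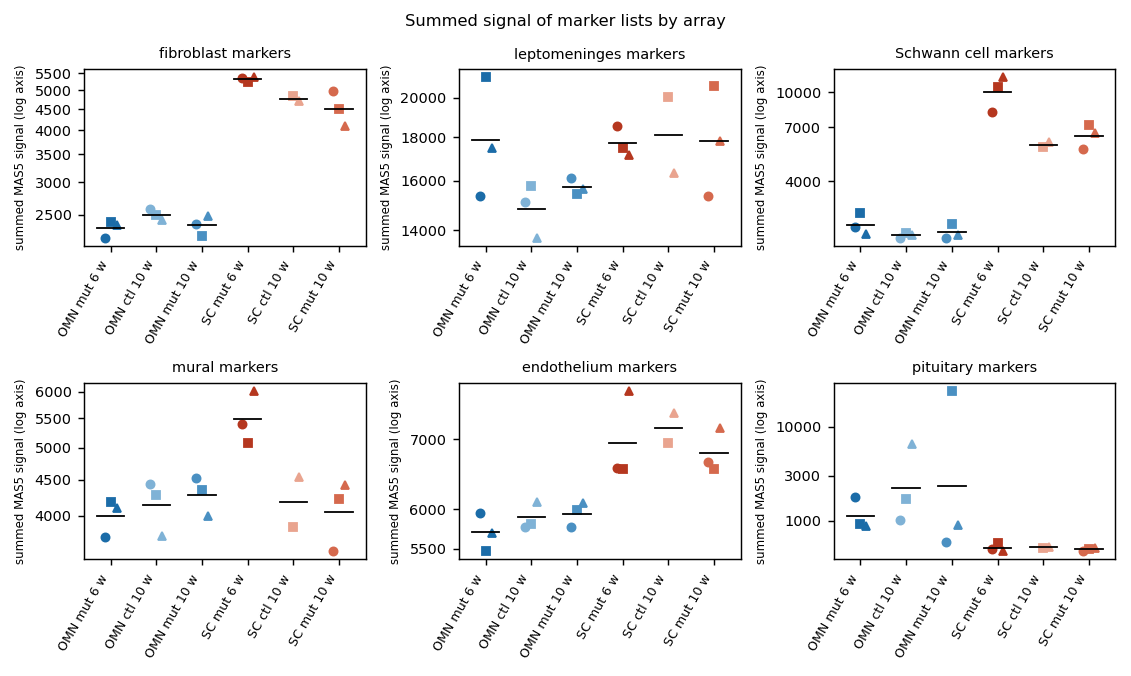
Summed MAS5 signal (y axis, log scale, scaled signal units) of 6 lists of cell type markers on each of the 17 arrays, by group (x axis: OMN, oculomotor nucleus; SC, spinal cord). Circles, squares and triangles are replicates 1, 2 and 3 and black lines are geometric means; fibroblast sums (at most 2577.3 against at least 4093) and Schwann cell sums separate the regions, and mural cell sums are highest in the cord of 6-week mutants (5083 to 6010.3).

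Genotype was compared at 10 weeks. No member was called between mutants and controls in the oculomotor nucleus (0 of 39 in limma, 4 with an unadjusted p under 0.05, smallest adjusted p 0.101), where 1.47% of all tested probe sets were called in either direction. In the cord 0 of 39 were called (9 with an unadjusted p under 0.05, smallest adjusted p 0.288; 0.0221% of all were called). The difference of the regional difference between mutants and controls was also called for 0 of 39 (3 with an unadjusted p under 0.05; 0% of all). The value nearest to a call in the oculomotor nucleus was that of the dimmer Col6a2 probe set, -0.48 ± 0.14, for which the controls read 285.9, 374.8 and 316 and the mutants 208.8, 233.5 and 235.4. In the cord Mgp had the smallest adjusted p of the members, with -0.54 ± 0.19 and a 95% interval from -0.93 to -0.15. A missed threshold at 3 arrays against 2 or 3 does not show that the genotypes were alike. The shares given for all tested probe sets count calls. The share of all with an unadjusted p under 0.05 in limma was not computed, here or for the ages below. The member counts at that threshold thus have no background beside them.

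From 6 to 10 weeks in mutant spinal cord, the brighter probe sets of Col1a1, Col1a2, Col3a1 and Col4a1 and both of osteoglycin fell, and Col11a1 and Col16a1 rose. Col3a1 fell by 1.09 ± 0.17 on the log2 scale, or 2.13-fold (adjusted p = 0.00505), from 1499.7, 1610.6 and 1603.6 to 632.1, 991.2 and 605.4. In all, 6 of the 39 tested members of 5 genes were called lower and 2 higher at 10 weeks, where 0.972% of all tested probe sets were called lower and 1.78% higher. With no filter 4 of 72 were called lower and 1 higher (0.389% and 0.787% of all). The 10-week control cord, at 763.2 and 720.4 for Col3a1, lay within the range of the 10-week mutants. With no control of 6 weeks, age and the course of the disease model cannot be told apart.

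**Figure D5:**
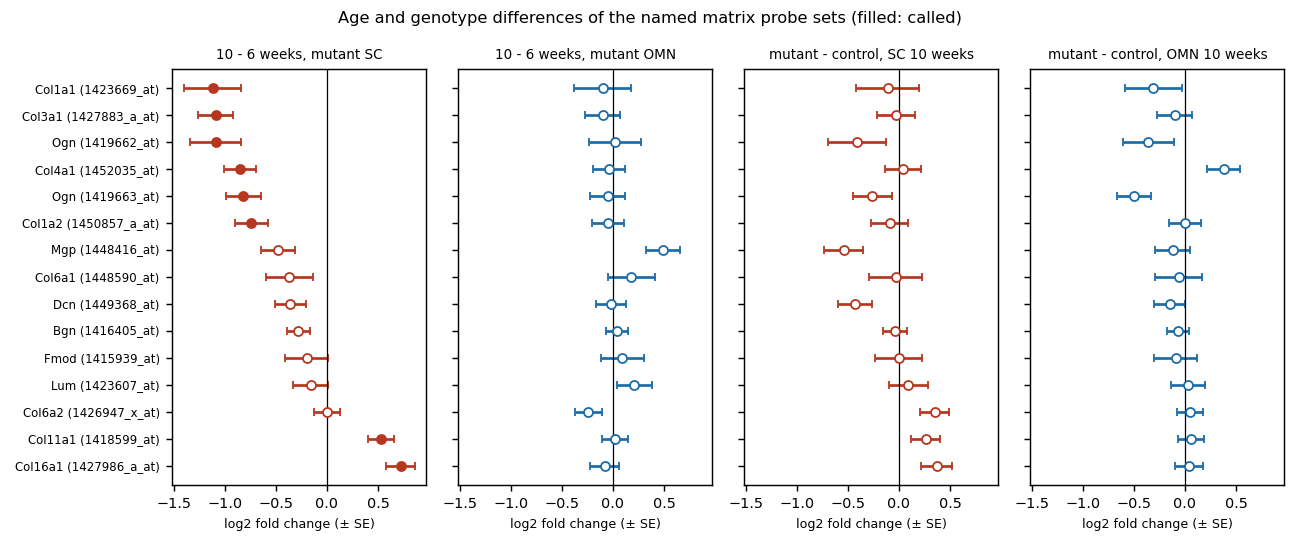
Log2 fold change (± SE, x axis) of the named matrix probe sets in each age and genotype comparison (1 panel each; each row is 1 probe set). Filled points were called and open points were not; the called points are in the panel of 10 minus 6 weeks in mutant spinal cord, from -1.12 for Col1a1 to 0.72 for Col16a1.

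The brighter Col1a1 probe set fell by 1.12 ± 0.28 (adjusted p = 0.0395). The dimmer one was at -0.49 ± 0.25 (adjusted p = 0.281, not called), with overlapping ages (419.9, 176.6 and 321.9 against 185.7, 274.1 and 151.7). The second Col3a1 probe set, too dim to be tested with the filter, was at -0.38 ± 0.25 without one (adjusted p = 0.475, not called). The brighter Col1a2 probe set fell by 0.74 ± 0.16 (0.0218), and the dimmer one was at -0.95 ± 0.28 (adjusted p = 0.0772, not called). Ogn fell by 0.82 ± 0.17 on the brighter probe set (0.0201) and by 1.09 ± 0.25 on the dimmer (0.0301). The brighter Col4a1 probe set fell by 0.85 ± 0.16 (0.0114), while the dimmer one overlapped between the ages (583.4, 572.1 and 708.8 against 511.2, 389 and 692.6). Of the genes that rose, Col11a1 gained 0.53 ± 0.13 (0.0325) and Col16a1, a minor collagen that bridges fibrils, 0.72 ± 0.14 (0.0118). Col16a1 read 282, 269.3 and 272.8 at 6 weeks and 453.8, 533.3 and 425.5 at 10 weeks in the mutant cord, with 333.2 and 381.6 in controls. In the oculomotor nucleus it read 464.7, 373 and 424.2 at 6 weeks, 413.7, 403.1 and 339.8 in controls and 405.6, 320.6 and 476.3 in 10-week mutants. For each called probe set the 2 ages did not overlap in the cord. These probe sets were picked by their calls on the same arrays, so the lack of overlap adds no support to the calls.

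Of these 8 calls, those of Col3a1 and Col16a1 held when any 1 of the 6 compared arrays was left out. The others were lost at an adjusted p of up to 0.148: that of Col1a1 without any of the 6-week replicates 1, 2 and 3 (0.131, 0.104 and 0.0571) or 10-week replicates 1 and 3 (0.148 and 0.105), or, among arrays of other groups, without control oculomotor replicate 1 (0.0515) or 10-week mutant oculomotor replicate 3 (0.0511) or without the 2 arrays with high pituitary signals (0.0554), and that of Col1a2 without 6-week replicate 1 or 2 (0.0764 and 0.0602) or 10-week replicate 3 (0.0666). Ogn lost its call on the brighter probe set without 6-week replicate 3 (0.0597) or 10-week replicate 1 or 3 (0.0582 and 0.059), and on the dimmer without any of the 6-week replicates (0.0743, 0.0507 and 0.1) or 10-week replicate 1 or 3 (0.119 and 0.0826). Col11a1 lost it without any 1 of the 6 arrays (0.0582 to 0.0974), and Col4a1 without 10-week replicate 1 (0.0501). Counted over the members, 3 were called without 10-week cord replicate 1 or 3, 4 without any 1 of the 6-week cord arrays and 10 without 10-week cord replicate 2. With no filter the calls of Col1a1 (0.0776), the dimmer Ogn probe set (0.0611) and Col11a1 (0.0507) were lost, and with signals floored at 25.0 that of Col1a1 (0.0786). When the fit held only the mutant cord arrays, 2 members were called; of the 8, Col3a1 kept its call and the others lost it (0.051 to 0.0916).

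In the mutant oculomotor nucleus 0 of 39 members were called between the ages in limma (3 with an unadjusted p under 0.05; 0.0221% of all called). The log2 fold changes of Col3a1, Col1a1, Col1a2 and Ogn there were -0.1, -0.1, -0.05 and -0.05. The difference between the regions in the age change was called for 0 of 39 members (12 with an unadjusted p under 0.05, smallest adjusted p 0.0811; 0.368% of all called). Its values were 0.99 ± 0.24 for Col3a1, 1.02 ± 0.4 for Col1a1 and -0.8 ± 0.19 for Col16a1, so a change particular to the cord was not shown. The age comparison shares the 6-week cord arrays with the regional comparison in 6-week mutants, in which Col3a1 differed by -2.77 (against -1.72 in controls and -1.78 in 10-week mutants); over all 39 tested members the median regional difference was -0.6 in 6-week and -0.61 in 10-week mutants.

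Other matrix genes of the lists fell in the same arrays: Serpinh1, the collagen chaperone (-0.63 ± 0.14), Pcolce (-0.74 ± 0.19), Nid1 (-0.69 ± 0.15), Adamts4 (-0.79) and Timp3 (-0.5). These were 2 of 20 genes of collagen maturation, 1 of 8 other basement membrane genes and 2 of 13 proteases and inhibitors, with 0 higher in each. Among cell type markers, Pmp22 fell by 0.79 ± 0.16, and the contractile mural genes Acta2 and Tagln by 1.01 ± 0.14 and 0.73 ± 0.18 (2 of 6 mural markers). The mural sums were 5083 to 6010.3 in the cord of 6-week mutants and 3560.9 to 4425.4 in that of 10-week mutants. In limma 0 of 7 fibroblast, 0 of 9 leptomeningeal and 0 of 13 endothelial markers were called, with medians of -0.18, -0.22 and 0.01. The part of Schwann and mural cells in the matrix change was not tested.

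Within several groups 1 replicate was the highest for many of the members. In 6-week mutant oculomotor samples replicate 2 was the highest of 3 arrays for 23 of the 39 members (59%), and for 31.3% of all tested probe sets. The same held for control oculomotor replicate 2 and 10-week mutant oculomotor replicate 3, with 24 members each (61.5%, against 37.3% and 33.8%), and for 10-week mutant cord replicate 2, with 23 (59%, against 33.3%). In the 6-week mutant cord replicate 1 led with 19 (48.7%, against 32.6%). Of the 13 members that were called lower by at least 2-fold, 11 were highest in replicate 2 of the 6-week mutant oculomotor nucleus within that group, and 11 in replicate 2 of the 10-week mutant cord within that one. In the latter Col3a1 read 991.2 where its partners read 632.1 and 605.4, Mgp 1019.9 against 680.4 and 635.1, and Col1a1 589 against 285.3 and 311.4. The members share their arrays, so these counts are not independent observations.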

How the data were processed

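The authors hybridised biotin-labelled cRNA to Mouse 430A arrays and deposited 1 intensity signal per probe set from Affymetrix Microarray Suite 5.0 (MAS5), per the series text and the submitters' processing notes; the deposited values are linear and scaled per array (2% trimmed mean 500.13 to 500.16). Of 22690 probe sets, 64 controls were removed. The analysis used log2(signal + 25.0), the offset being 5% of the trimmed mean, without renormalizing. Probe sets in the dimmest 40% by mean log2 (limit 7.38) were dropped, leaving 13575. Symbols came from the array annotation (20380 probe sets with 1 symbol, 691 with several, 1555 with none), and members have 1. For the other gene lists, symbols updated through gene identifiers were matched as well.

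Group means were fitted by limma (version 3.58.1, run under R 4.3.3) with a trended eBayes step and 11 residual degrees of freedom, with Benjamini-Hochberg adjustment within each of 10 contrasts. Replicate 1 of control spinal cord was not used, since its values did not follow its probe sets. A gene's brightest probe set stands for it. Arrays are given for Col3a1, Col1a1, Ogn, Dcn, Mgp, members called with at least 2-fold between regions and members called by age or genotype; of other lists, up to 4 genes with the smallest p of the mean regional contrast and up to 2 of each other contrast are named. The singled out dimmer probe sets and other members were chosen after their values were seen. The members, lists and tests were chosen with earlier results of these data known. The steps were tested on simulated data. Alternatives covered normalization, offset, filter, variance trend, arrays in the fit, replicate block, call rule and each array left out. The submitters' present and absent calls were not computed here.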

Additional observations from a re-analysis of the deposited data

How the results depend on the processing

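Of the values for single probe sets under the alternatives, 4032 kept their direction and their side of the threshold, 101 lost a call, 6 gained one and 1 turned: Col6a2 in controls, from -0.46 to 0.58 with all 18 arrays. The counts of members called lower between the regions (23, 17, 26 and 26 in 6-week mutants, controls, 10-week mutants and the mean) were 10, 8, 9 and 9 with a filter of 60%, which tests fewer probe sets, and 14, 10 and 7 in the 3 conditions with all 18 arrays, which adds the array whose values do not follow its probe sets. The number of members tested and the share of all probe sets called under these settings are not given, so a smaller count is not by itself a smaller difference. With every pairwise comparison in 1 direction and over 2-fold, or with an adjusted p under 0.05 and at least 2-fold, the count was 10 in 10-week mutants and 13 in the mean, and the count called higher in the mean was 0 (3 otherwise); it was 1 with all 18 arrays. The 8 members called by age in the cord were 5 with no filter, 2 in a fit of the arrays of the contrast alone, 0 with all 18 arrays (0 also for the other age and genotype counts there) and 3 under either 2-fold rule. The cause of the other shifts was not tested.

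Leaving out each array gave 19 to 24 members lower in 6-week mutants, 14 to 18 in controls, 18 to 26 in 10-week mutants and 24 to 28 in the mean, 2 to 3 higher in the mean, and 3 to 10 by age in the cord; the genotype counts, the age count in the oculomotor nucleus and both difference counts stayed at 0. A lone remaining array was assumed to vary like the other groups. The replicate numbers were not taken as pairs: over 40 pairs of arrays with the same number the correlation of deviations ran from -0.1 to 0.13, with 5 over 0.1. With the replicate number as a block the counts were 23, 17, 25 and 26 lower between the regions and 8 by age in the cord; of the calls for named probe sets it ended that of Col11a1 in controls (0.44, adjusted p = 0.061). The 33 untested probe sets, at a median signal of 49.7, limit what can be seen of the dim collagens.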
